A study of Mus musculus with 12 samples.

Results

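The mitochondrial ribosomal protein genes are the genes whose mouse symbols begin with Mrpl or Mrps followed by a digit. Of 78 such genes among the 21885 genes of the expression table, 77 had a mean of at least 50 scaled reads over the 12 libraries and were kept. The gene just outside this limit was Mrpl53, with a mean of 0.143, and the gene just inside was Mrps34, with a mean of 204.8. The kept genes comprised 50 encoding proteins of the large subunit of the mitochondrial ribosome, 26 encoding proteins of the small subunit, and Mrps36, whose product is now placed in the 2-oxoglutarate dehydrogenase complex. The RNA-seq libraries came from sorted mouse cells in 3 groups of 4. The group called Pax5 KO held common lymphoid progenitor and pre-pro-B cells (CLP/pre-pro-B) from Pax5-/- fetal liver. The group called Pax5 WT held the next stages, pro-B and pre-BI, sorted from Pax5+/+ fetal liver. The group called P80R B-ALL held GFP+ leukaemic cells carrying PAX5 P80R, a substitution in the DNA-binding domain of the B-lineage transcription factor PAX5, taken from primary recipients 1300, 1301, 1302 and 1308 with B-cell acute lymphoblastic leukaemia. Genotype, sorted stage and, for the leukaemias, the source of the cells differ together between the groups and cannot be told apart. The labels do not say whether the 4 libraries of a fetal liver group came from separate animals, so p-values measure only the spread between these samples.

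Mitochondria translate the few proteins encoded by their own DNA, all of them core subunits of the respiratory chain and ATP synthase, on ribosomes of their own. The RNA of these ribosomes is made in the organelle, whereas every protein is encoded in the nucleus, translated in the cytosol and imported. Some of the proteins have counterparts in the bacterial ribosome, and others were added in the mitochondrial lineage. Proliferating lymphoid cells enlarge and renew their mitochondria as they grow, and MYC, nuclear respiratory factor 1 (NRF1) and the ETS factor GABP are known regulators of nuclear genes for mitochondrial proteins.

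The libraries held between 24914250 and 43513852 reads assigned to genes, and the mitochondrial ribosomal protein genes took between 180366 and 311647 of them. Within a group, Spearman's rho between libraries over genes lay between 0.991 and 0.997 for the fetal liver groups and between 0.899 and 0.954 for P80R B-ALL. Pax5 was present at 230 to 267 scaled reads in Pax5 KO. It stood at 6194 to 7315 in Pax5 WT, whereas the leukaemias held 255 to 1316, and the labels do not say which part of the gene was deleted or whether reads from the introduced PAX5 P80R count towards it. Early B-lineage markers (12 genes, Ebf1 and Cd79a among them) summed to 47750 to 49162 in Pax5 KO, and to 256394 to 302394 with Pax5 intact. In the leukaemias the range was 119842 to 208068. The 8 erythroid markers summed to at most 227 in either fetal liver group, with Hba-a2 at 0 in both, but to 410505, 38834, 32543 and 1066405 in recipients 1300, 1301, 1302 and 1308. The 8 granulocyte and monocyte markers summed to 134824, 13331, 4939 and 239683 in the same order. Recipients 1300 and 1308 therefore stood apart in erythroid and granulocyte RNA, and counts of genes called in the leukaemia are given with and without them. Macrophage markers did not follow that division: the 8 summed to 4310, 6583, 5355 and 30171 in the same order, against 6.00 to 26.5 in Pax5 WT and 1051 to 1133 in Pax5 KO. The 6 T-lineage markers in the table summed to 7235, 14063, 5523 and 9067 in the recipients, 407 to 575 in Pax5 WT and 2522 to 2596 in Pax5 KO, so that every recipient exceeded the fetal liver libraries on both lists. The 8 hepatocyte markers summed to 11038 to 22942 in the recipients, 25.8 to 42.5 in Pax5 WT and 483 to 569 in Pax5 KO. Nearly all of the leukaemia sum was Trf (10927 to 22910), the transferrin gene, while Alb, Apoa1, Ttr, Serpina1a and Fgb were at 0 in every library. The part of RNA from other cells in the leukaemia results was not tested beyond leaving out recipients 1300 and 1308.

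In scaled reads, messenger RNA from the mitochondrial ribosomal protein genes was on average lowest in Pax5 KO and highest in P80R B-ALL. Their values summed to 182758, 184873, 181513 and 191812 scaled reads in Pax5 KO libraries 1 to 4. The sums were 215804, 225110, 225585 and 268059 in Pax5 WT libraries 1 to 4. In recipients 1300, 1301, 1302 and 1308 they were 273639, 354624, 239047 and 249604. Every Pax5 KO library lay below every library of the other groups, while Pax5 WT library 4 lay within the range of the leukaemias. In shares of all reads the order was the same, with 0.574% to 0.610% in Pax5 KO, then 0.651% to 0.790% for Pax5 WT and 0.669% to 0.981% for the leukaemias, and the last pair of groups overlapped. Divided by transcript length and brought to a common total in each library, the sums did not keep this order: Pax5 KO libraries stood at 9590 to 9964, Pax5 WT libraries at 10759 to 12219, and the recipients at 11776, 13318, 11279 and 9092. On that scale recipient 1308 lay below every Pax5 KO library, and the means of P80R B-ALL (11366 ± 1747, SD, n = 4) and Pax5 WT (11306 ± 633, SD, n = 4) differed by less than the spread between leukaemias. In bulk samples, fewer cells of a type and less RNA per cell cannot be told apart.

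**Figure D1:**
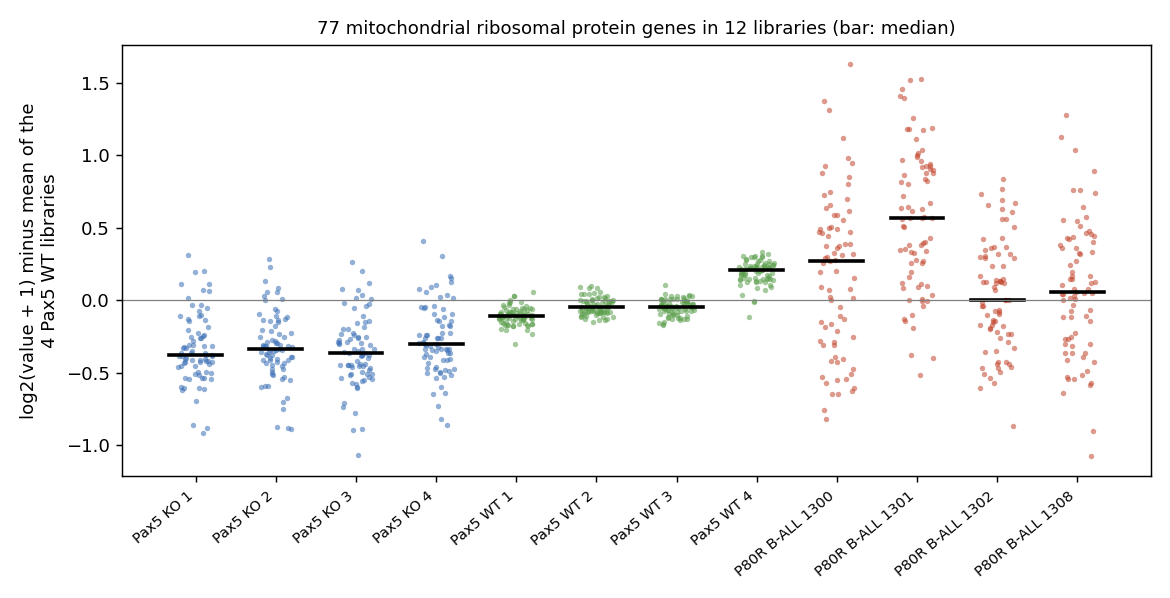
Each point is a mitochondrial ribosomal protein gene and each column a library; the vertical axis is log2(value + 1) minus that gene's mean over the 4 Pax5 WT libraries, and the black bar is the median of the 77 genes. Medians lie between -0.38 and -0.30 in Pax5 KO, and among the leukaemias that of recipient 1301 is highest at 0.57.

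Gene by gene, the median distance from the Pax5 WT mean was -0.38, -0.34, -0.36 and -0.30 on the log2 scale in Pax5 KO libraries 1 to 4, and 0.27, 0.57, -0.00 and 0.06 in recipients 1300, 1301, 1302 and 1308. Recipient 1301 thus stood highest among the leukaemias, and it held the highest of the 4 values for 63 of the 77 genes. The lowest of the 4 was in recipient 1302 for 35 genes, in 1308 for 30 and in 1300 for 12. Among the Pax5 WT libraries, library 4 was above the group mean for 74 of 77 genes, with a median distance of 0.21 against -0.11 to -0.04 in the others. The median SD between libraries over the 77 genes was 0.07 in Pax5 KO, 0.15 in Pax5 WT and 0.31 in P80R B-ALL on the log2 scale, against 0.11, 0.16 and 0.47 over the 12200 genes tested.

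Comparing Pax5 KO with Pax5 WT asks how the programme of progenitors that lack Pax5 differs from that of the pro-B stage with Pax5. Most of the mitochondrial ribosomal protein genes were lower in Pax5 KO: 56 of 77 passed an adjusted p under 0.05 (limma) as lower, 2 as higher and 19 did not pass. Among all genes tested, 29.1% were called lower and 35.7% higher, 64.8% in all. The median difference of the 77 genes was -0.34 on the log2 scale, and that of all genes 0.06. Both subunits moved together, with 35 of 50 large subunit genes and 20 of 26 small subunit genes lower, and medians of -0.34 for each. The 8 libraries did not overlap for 53 genes that were lower and 1 that was higher, against 26.7% and 32.4% of all genes. Removing from each library its trend on transcript length, described further down, left 47 genes lower, 46 of them among the 56. In that fit 10 of the 77 were higher and the median was -0.18, while 27.6% of all genes were lower and 38.9% higher. Without Pax5 WT library 4, 55 genes were lower and 3 higher, with a median of -0.29, against 30.4% and 36% of all genes.

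The gene furthest down was Mrpl49, a mitochondrial addition to the large subunit. Its values were 2115, 2103, 1857 and 2145 in Pax5 KO and 3839, 3873, 3633 and 4257 in Pax5 WT. The groups lay far apart, with a ratio of means of 0.527 and a log2 difference of -0.92 ± 0.07 (SE, adjusted p = 2.5e-07, limma). Mrpl23, whose bacterial counterpart sits at the mouth of the tunnel through which the new protein leaves, held 1709, 1762, 1736 and 1823 in Pax5 KO and 2851, 3050, 3200 and 3883 in Pax5 WT. Its log2 difference was -0.88 ± 0.09 (SE, adjusted p = 2.96e-06, limma), and again no library of either group reached the other. Mrpl54, another mitochondrial addition, stood at 1750, 1727, 1714 and 1911 against 2944, 3107, 3078 and 3614, a log2 difference of -0.84 ± 0.07 (SE, adjusted p = 1.01e-06, limma). These 3 genes were between 0.527 and 0.557 times the Pax5 WT mean, further down than any other of the 77.

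Next in size came 5 more large subunit genes, with log2 differences of -0.67 for Mrpl16, -0.66 for Mrpl13, -0.65 for Mrpl58, -0.65 for Mrps18a and -0.54 for Mrpl18. Mrpl58 encodes a peptidyl-tRNA hydrolase that rescues stalled mitochondrial ribosomes as well as being part of them. It held 1252, 1202, 1119 and 1348 scaled reads in Pax5 KO and 1848, 1762, 1873 and 2244 in Pax5 WT. Mrpl13 held 3389, 3186, 3176 and 3433 in Pax5 KO and 4789, 4964, 5053 and 6039 in Pax5 WT. In each of these 5 genes every Pax5 KO library was below every Pax5 WT library.

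The exceptions were in the small subunit. Mrps10 held 2312, 2271, 2244 and 2475 in Pax5 KO and 1664, 1895, 1825 and 2106 in Pax5 WT, a log2 difference of 0.32 ± 0.08 (SE, adjusted p = 0.00334, limma) with no overlap. Mrps6 held 1093, 1124, 1041 and 1183 against 860, 991, 926 and 1061, so that the highest Pax5 WT library exceeded the lowest Pax5 KO library, and its log2 difference was 0.21 ± 0.08 (SE, adjusted p = 0.0408, limma). Mrps10 and Mrps6 were the only members past the threshold as higher in this fit, and under edgeR, DESeq2 or TMM scaling, or without Pax5 KO library 1, 2 or 4 or Pax5 WT library 1, 2 or 3, only 1 of the 77 passed as higher. That gene was Mrps10, so Mrps6 lost its call in each of these settings. Reads of Mrps6 are uncertain, since 19.9% of its exonic bases lie also in other genes on the same strand, Slc5a3 among them. The 3 largest differences that did not pass were -0.18 for Mrpl19, -0.16 for Mrps12 and -0.15 for Mrpl52. With the length trend removed, Mrpl19 passed as lower (-0.31, adjusted p = 0.0196, limma) and Mrpl52 as higher (0.19, adjusted p = 0.0101, limma).

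**Figure D2:**
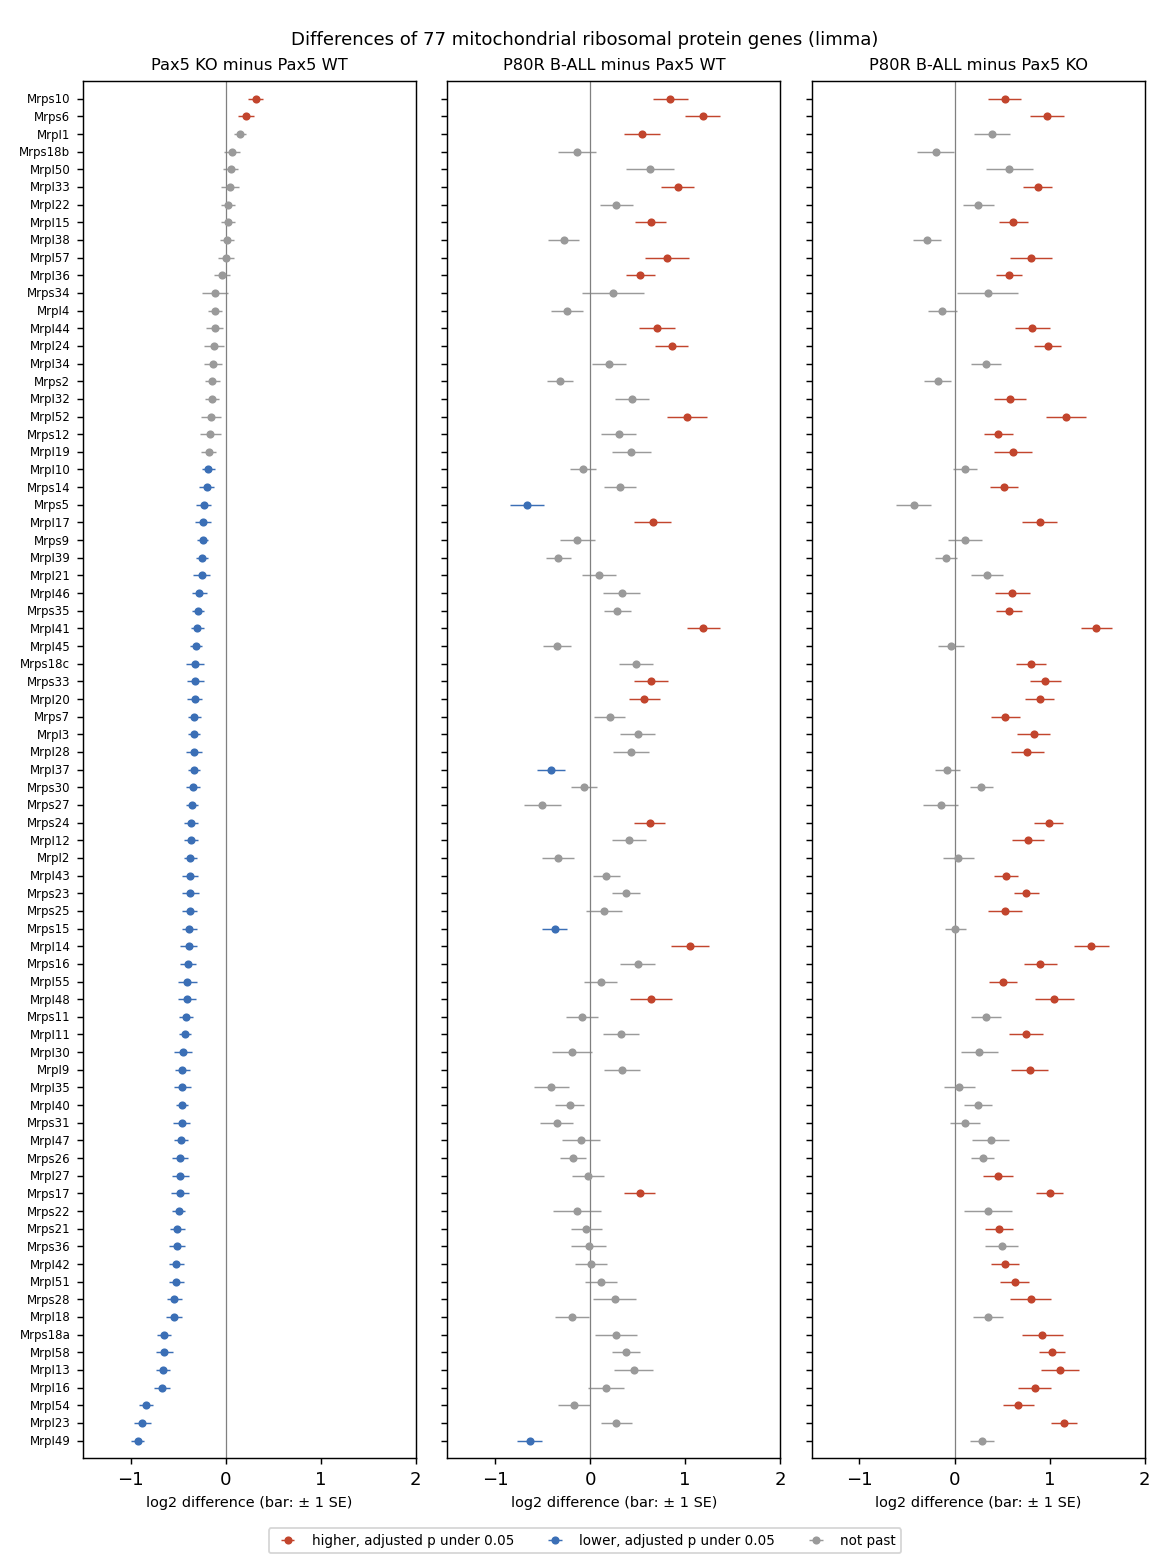
Each row is a mitochondrial ribosomal protein gene, ordered by its difference between Pax5 KO and Pax5 WT; the horizontal axes give log2 differences in the 3 comparisons, points are estimates, bars 1 SE either way, and colour marks the call at an adjusted p under 0.05. Blue points fill most of the left panel (56 genes) and red points much of the right one (46 genes), while grey points prevail in the middle panel (55 genes).

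Comparing P80R B-ALL with Pax5 KO sets the leukaemia beside progenitors without Pax5. Here 46 of the 77 genes were higher in the leukaemia, 0 were lower and 31 did not pass, against 17.6% higher and 20.8% lower among all genes tested, 38.4% in either direction. Other scalings within limma moved this background, to 18.7% and 18.7% with TMM scaling and to 14.3% and 25.9% with scaling by total reads, under which 34 of the 77 genes were higher and 1 lower. With both the test and the scaling changed, it was 20.6% and 15% under edgeR and 24.2% and 17.9% under DESeq2. The median difference was 0.54 for the 77 genes and -0.11 for all genes. Of the large subunit genes 31 of 50 were higher and of the small subunit genes 15 of 26. Among small subunit genes with a bacterial counterpart the count was 11 of 16, and among mitochondrial additions to the small subunit 4 of 10; the difference between these shares was not tested. Every leukaemia lay above every Pax5 KO library for 51 genes, and below for 0, against 19.5% and 22.9% of all genes. The lowest log2 difference was -0.43 ± 0.18 for Mrps5 (SE, adjusted p = 0.0954, limma). Without recipients 1300 and 1308, 48 genes were higher and 0 lower, and 40 of the 46 were among them. Of all genes, 21.2% were then higher and 27.8% lower. With the transcript length trend removed, 28 were higher and 10 lower, with a median of 0.19, and 25 of the 46 remained higher. Shares of all genes in that fit were 13.8% higher and 17.9% lower.

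Mrpl41 and Mrpl14 led this comparison. Mrpl41, a mitochondrial addition to the large subunit, held 1870, 1722, 1830 and 1868 in Pax5 KO and 5809, 6423, 4001 and 4588 in recipients 1300, 1301, 1302 and 1308. Every leukaemia held more than every Pax5 KO library, with a ratio of means of 2.86 and a log2 difference of 1.49 ± 0.16 (SE, adjusted p = 0.000415, limma). Mrpl14, which has a bacterial counterpart on the face of the large subunit that meets the small one, held 1379, 1336, 1399 and 1399 against 3915, 5209, 2843 and 3355. Its ratio of means was 2.78 and its log2 difference 1.44 ± 0.18 (SE, adjusted p = 0.000754, limma). Mrpl52 held 1513, 1254, 1300 and 1596 against 4853, 2982, 2666 and 2620, a log2 difference of 1.17 ± 0.21 (SE, adjusted p = 0.0034, limma), and recipient 1300 stood well above the other 3. That call was lost with the length trend removed (adjusted p = 0.439).

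Mrpl23 and Mrpl13, low in Pax5 KO beside Pax5 WT, were high in the leukaemia beside Pax5 KO. Mrpl23 held 4182, 4771, 3563 and 3262 in the 4 recipients, 2.24 times the Pax5 KO mean (log2 difference 1.15 ± 0.14, SE, adjusted p = 0.000666, limma). Mrpl13 held 7795, 10376, 5647 and 5638, 2.23 times that mean (log2 difference 1.11 ± 0.20, SE, adjusted p = 0.00342, limma). Mrpl48, Mrpl58 and Mrps17 followed, with log2 differences of 1.05, 1.02 and 1.00. The leukaemias and Pax5 KO did not overlap for any of these 5 genes. The largest differences that did not pass were 0.58 for Mrpl50, 0.50 for Mrps36 and -0.43 for Mrps5.

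Set against Pax5 WT, the leukaemia showed a mixed picture. Of the 77 genes, 18 were higher, 4 lower and 55 did not pass. Among all genes tested 21% were called higher and 18.9% lower, 39.9% in all, so that the share called higher was close to that of all genes. Among all genes of the shortest length class, described further down, 32.5% were called higher and 9.89% lower. The median difference was 0.26 for the 77 genes and -0.00 for all genes. With the scaling alone changed, the counts were 18 higher and 2 lower with TMM scaling and 16 higher and 7 lower with total reads. Under DESeq2, which changes the test as well, they were 25 higher and 2 lower. Shares of all genes were 21.7% and 18.1% with TMM scaling, 19.7% and 19.9% with total reads, and 26% and 18% under DESeq2. Single libraries moved them as well: 10, 9 and 9 genes were higher without Pax5 WT library 1, 2 or 3. In those fits the share of all genes called higher fell too, to 16.1%, 16.1% and 15.9%. Without recipient 1301 the count of lower genes was 9 and the median 0.13, with 18.6% of all genes lower. Without recipients 1300 and 1308, 22 were higher and 3 lower, against 22.5% and 20.9% of all genes. With the transcript length trend removed, 17 were higher, 11 of them among the 18, 19 were lower, and the median was -0.00. Of all genes, 21.5% were higher and 18.8% lower in that fit. Groups did not overlap for 19 genes that were higher and 6 that were lower, against 21.2% and 19.4% of all genes.

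Mrpl41 was 2.32 times the Pax5 WT mean, with Pax5 WT libraries at 2076, 2172, 2212 and 2517 (log2 difference 1.19 ± 0.17, SE, adjusted p = 0.000653, limma). Mrps6 was 2.31 times that mean, at 2377, 2625, 1544 and 2325 in the 4 recipients (log2 difference 1.18 ± 0.19, SE, adjusted p = 0.00107, limma). Mrpl14, at 1532, 1860, 1753 and 2116 in Pax5 WT, was 2.11 times higher in the leukaemia (log2 difference 1.05 ± 0.20, SE, adjusted p = 0.00287, limma). In all 3 genes every leukaemia exceeded every Pax5 WT library. Mrps10 held 3595, 4457, 3096 and 2539 in the recipients, 1.83 times its Pax5 WT mean (log2 difference 0.84 ± 0.18, SE, adjusted p = 0.00573, limma). Mrps6 and Mrps10 were thus ordered Pax5 WT, Pax5 KO, P80R B-ALL from low to high, with all 3 differences past the threshold in these fits. For Mrps6 the step from Pax5 WT to Pax5 KO did not pass under edgeR, DESeq2 or TMM scaling. Mrpl52, Mrpl33, Mrpl24 and Mrpl57 were higher by ratios of means of 2.08, 1.91, 1.82 and 1.82, without overlap. Mrpl57 lost its call without Pax5 WT library 1, 2 or 3 (adjusted p = 0.052 to 0.056), and Mrpl52 and Mrpl33 lost theirs with the length trend removed (adjusted p = 0.126 and 0.063). For Mrpl24, 26.3% of its exonic bases lie also in the opposite-strand gene Rrnad1, and the library kit does not mark strand.

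The 4 genes lower in the leukaemia than in Pax5 WT were Mrps5, Mrpl49, Mrpl37 and Mrps15. Mrps5, whose bacterial counterpart helps to keep decoding accurate, held 1726, 2317, 2394 and 1445 in the recipients and 3033, 3260, 3114 and 2815 in Pax5 WT, a log2 difference of -0.66 ± 0.18 (SE, adjusted p = 0.0166, limma). Mrpl49 held 2732, 2718, 2136 and 2498 in the recipients, 0.646 times the Pax5 WT mean (log2 difference -0.63 ± 0.13, SE, adjusted p = 0.00468, limma). Mrpl37 was 0.757 times and Mrps15 0.769 times the Pax5 WT mean, with adjusted p = 0.0443 and 0.047 (limma). In these 4 genes no leukaemia reached the lowest Pax5 WT library. Mrpl37 kept its call only without recipient 1301 among the single libraries left out, with adjusted p = 0.056 to 0.12 without any other, and lost it under edgeR (0.051), DESeq2 (0.064) and TMM scaling (0.064). Mrps15 kept its call only without recipient 1300, with adjusted p = 0.052 to 0.125 without any other, and lost it under DESeq2 (0.055) and TMM scaling (0.069). Mrps5 lost its call without Pax5 WT library 2 (adjusted p = 0.055) or 3 (0.05) and with the length trend removed (0.051). The largest differences that did not pass were 0.63 for Mrpl50, -0.50 for Mrps27 and 0.50 for Mrps16.

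**Figure D3:**
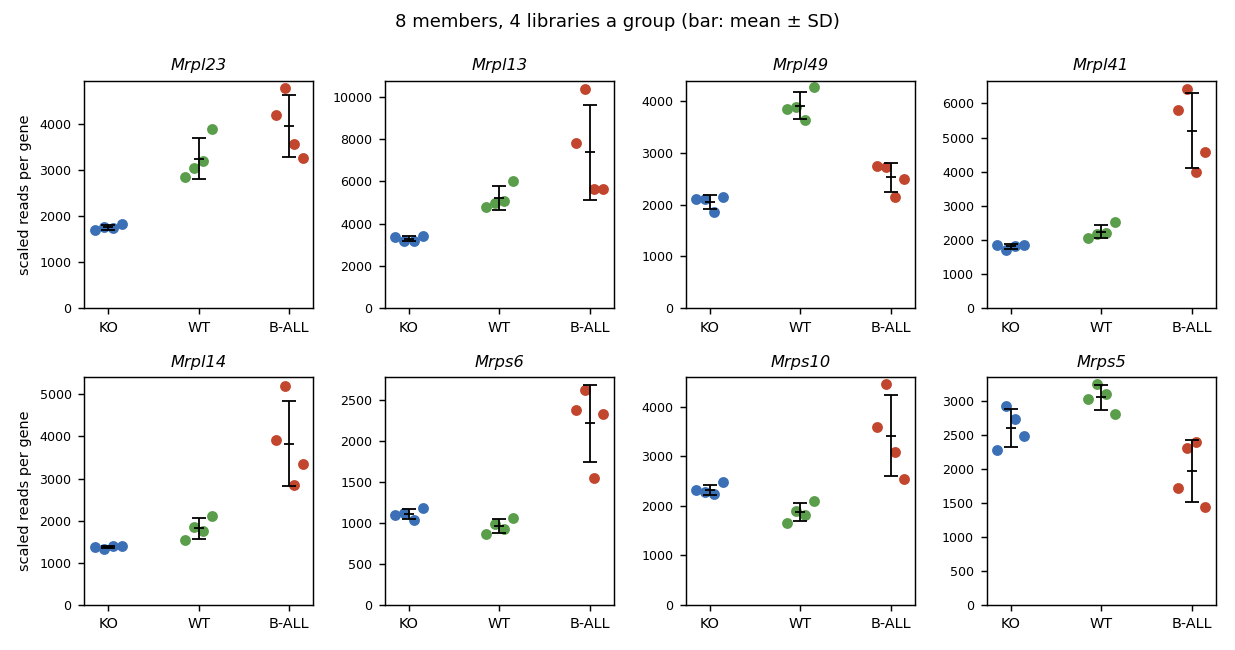
Scaled reads of 8 mitochondrial ribosomal protein genes in 3 groups of 4 libraries; each point is a library, and the bar gives the mean and SD of a group, on axes that start at 0. Mrpl23, Mrpl13 and Mrpl49 are lowest in Pax5 KO, Mrpl41, Mrpl14, Mrps6 and Mrps10 are highest in the leukaemia, and Mrps5 is highest in Pax5 WT.

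The 3 comparisons share groups, so their calls are given side by side only. The most common combination, in 26 genes, was lower in Pax5 KO than in Pax5 WT, higher in P80R B-ALL than in Pax5 KO, and not past the threshold between P80R B-ALL and Pax5 WT. For 8 genes (Mrpl14, Mrpl17, Mrpl20, Mrpl41, Mrpl48, Mrps17, Mrps24 and Mrps33) the leukaemia was above both fetal liver groups and Pax5 KO below Pax5 WT. The 4 genes lower in the leukaemia than in Pax5 WT were lower in Pax5 KO as well. A further 18 were lower in Pax5 KO and passed neither other comparison. Among the 19 genes that did not pass between the fetal liver groups, 7 were higher in the leukaemia than in both, 3 than in Pax5 KO only, and Mrpl1 than in Pax5 WT only. The remaining 8, Mrpl4, Mrpl22, Mrpl34, Mrpl38, Mrpl50, Mrps2, Mrps18b and Mrps34, passed in no comparison. By group means alone, 43 genes were ordered Pax5 KO, Pax5 WT, P80R B-ALL from low to high and 18 had Pax5 WT at the top with Pax5 KO lowest.

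Several members were named for their role or placement. Mrpl12, the stalk protein that also binds the mitochondrial RNA polymerase, held 3982, 3793, 3635 and 4057 in Pax5 KO, 4622, 4681, 4839 and 5833 in Pax5 WT, and 6862, 8774, 6139 and 5113 in the recipients. Between the fetal liver groups it was lower in Pax5 KO, by a log2 difference of -0.36 ± 0.08 (SE, adjusted p = 0.00144, limma), and it was higher in the leukaemia than in Pax5 KO (0.77 ± 0.17, SE, adjusted p = 0.00746, limma), the latter not with the length trend removed (adjusted p = 0.065). The recipient with the lowest value, 1308, overlapped Pax5 WT, and that comparison did not pass (0.41 ± 0.18, SE, adjusted p = 0.0944, limma). Mrps12, at the decoding centre, was 1490 ± 64.2 in Pax5 KO, 1683 ± 285 in Pax5 WT and 2074 ± 360 in P80R B-ALL (mean ± SD, n = 4 each), and passed between the leukaemia and Pax5 KO only (adjusted p = 0.0396, limma). That call was lost without any single Pax5 KO library (adjusted p = 0.082 to 0.108), without recipient 1300, 1301 or 1308 (0.061 to 0.071), and without 1300 and 1308 together (0.118), and the sign changed with the length trend removed (-0.20). Mrps36 was 1258 ± 58.8, 1798 ± 192 and 1808 ± 402 (mean ± SD, n = 4 each), lower in Pax5 KO than in Pax5 WT by 0.51 on the log2 scale (adjusted p = 0.000169, limma). Mrps30, named for the small subunit but placed in the large one, was 2507 ± 116, 3192 ± 311 and 3061 ± 343 (mean ± SD, n = 4 each), and in this fit both genes were called only between the fetal liver groups. Between the leukaemia and Pax5 KO, Mrps36 lay at the threshold (adjusted p = 0.05, limma) and passed under edgeR (0.0289), DESeq2 (0.012), TMM scaling (0.0404), in the joint fit (0.0184) and without recipient 1302 (0.00517). With the length trend removed, Mrps36 was called lower in the leukaemia than in Pax5 WT (-0.51, adjusted p = 0.00516). Mrps30 passed as higher in the leukaemia than in Pax5 KO under DESeq2 (0.0266), without recipient 1308 (0.03), without 1300 and 1308 (0.0323) and with the length trend removed (0.0198).

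Mammals have 3 relatives of a single bacterial small subunit protein, and their genes did not share a pattern of calls. Mrps18a, whose product lies in the large subunit, held 3038, 3039, 2765 and 2961 in Pax5 KO, 4245, 4596, 4383 and 5293 in Pax5 WT, and 6938, 6846, 5911 and 3472 in the recipients. Mrps18c, the closest counterpart of the bacterial protein, held 2557, 2682, 2649 and 2652, then 3079, 3028, 3014 and 4149, then 4673, 5816, 3503 and 4684. Both were lower in Pax5 KO than in Pax5 WT and higher in the leukaemia than in Pax5 KO, and recipient 1308 was the lowest leukaemia for Mrps18a but not for Mrps18c. With the length trend removed, neither passed between the leukaemia and Pax5 KO (adjusted p = 0.446 and 0.858), nor did Mrps18c between the fetal liver groups (0.645). Mrps18b held 785, 695, 718 and 659, then 643, 674, 734 and 679, then 465, 823, 681 and 572, and all 3 groups overlapped. Its largest difference was -0.20 ± 0.20 between the leukaemia and Pax5 KO (SE, adjusted p = 0.45, limma), but with the length trend removed Mrps18b passed there at -0.78 (adjusted p = 0.019) and between the fetal liver groups at 0.28 (0.0156). On a scale of level per length (values divided by transcript length and brought to a common total in each library), averaged over the 12 libraries, Mrps18b stood at 38.8, against 308.9 for Mrps18a and 286.8 for Mrps18c.

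On the same scale of level per length, the highest levels were those of Mrpl20 at 574.1, Mrpl42 at 525.7 and Mrpl33 at 382.1. The lowest were Mrps34 at 11.7, Mrps25 at 18.9 and Mrpl47 at 24.6. All 3 of the lowest share exonic bases with neighbouring genes, 77.8% for Mrps34, 69.8% for Mrps25 and 24.2% for Mrpl47, and reads in shared stretches may have been left out or assigned to the neighbour. The same holds for Mrpl53, outside the limit, which shares 88.0% of its exonic bases with another gene on its strand. Levels of these genes are therefore uncertain. The widest spread between leukaemias was in Mrps34, Mrps22 and Mrpl50. Mrps22 held 1620, 3620, 2188 and 1555 in the 4 recipients, with recipient 1301 far above the rest and the lowest value below every Pax5 WT library.

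The ratio of large to small subunit transcripts, as summed levels per length, was 2.60, 2.52, 2.59 and 2.62 in Pax5 KO libraries 1 to 4. It was 2.64, 2.62, 2.62 and 2.64 in Pax5 WT and 2.74, 2.86, 2.87 and 2.50 in recipients 1300, 1301, 1302 and 1308. The Pax5 KO libraries came up to the lower edge of the Pax5 WT range, the nearest pair being equal as rounded, and the leukaemias lay on both sides of it. Without dividing by length the fetal liver groups overlapped, with Pax5 KO libraries at 2.35 to 2.45 and Pax5 WT libraries at 2.44 to 2.49, and leukaemias at 2.36 to 2.74.

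Transcript length moved with these results. Over all tested genes, divided into 4 length classes of equal size, the shortest class (up to 1711 bases) had a median distance from the Pax5 WT mean of -0.13 to -0.07 in Pax5 KO, 0.16 in Pax5 WT library 4, and 0.36, 0.51, 0.11 and 0.40 in recipients 1300, 1301, 1302 and 1308. The longest class went the other way, at 0.19 to 0.28 in Pax5 KO, -0.22 in Pax5 WT library 4, and -0.18, -0.44, 0.00 and -0.24 in the recipients. Mitochondrial ribosomal protein genes are short, with a median transcript of 1226 bases against 2664 for all genes tested, and 51 of the 77 fell in the shortest class. Within that class the median difference between Pax5 KO and Pax5 WT was -0.36 for these genes and -0.11 for all genes, and between P80R B-ALL and Pax5 KO 0.53 and 0.38. Between P80R B-ALL and Pax5 WT it was 0.24 for these genes and 0.34 for all genes of that class. In the longest class, with 6 members, the corresponding medians were -0.26 and 0.23, then 0.55 and -0.50, then 0.22 and -0.24. The 51 members of the shortest class had 2 higher and 37 lower calls between Pax5 KO and Pax5 WT, against 26.1% and 39.9% of all genes of that class. Between P80R B-ALL and Pax5 KO they had 31 and 0, against 35.8% and 6.27%. Between P80R B-ALL and Pax5 WT they had 13 and 3, against 32.5% and 9.89%. Of the 26 members outside the shortest class, 19 were lower and 0 higher between Pax5 KO and Pax5 WT. Between P80R B-ALL and Pax5 KO 15 were higher and 0 lower, and between P80R B-ALL and Pax5 WT 5 higher and 1 lower. Of all genes in the longer classes, 18.6% to 32.7% by class were lower and 31.9% to 44.1% higher between Pax5 KO and Pax5 WT. The shares higher and lower between P80R B-ALL and Pax5 KO were 7.34% to 16.6% and 16.0% to 34.7%. Those between P80R B-ALL and Pax5 WT were 14.2% to 20.1% and 19.8% to 23.5%. The part of RNA quality or library preparation in the trend with length was not tested.

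**Figure D4:**
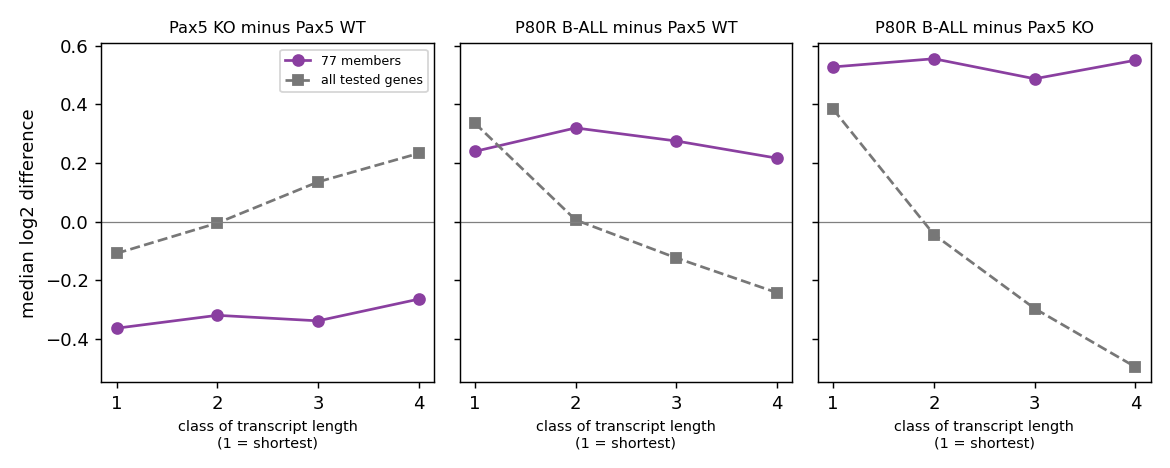
Median log2 difference (vertical axis) by class of transcript length (horizontal axis, 1 = shortest) for the 77 mitochondrial ribosomal protein genes (purple circles) and all tested genes (grey squares) in the 3 comparisons. The medians of the 77 genes stay near one level in each panel, at -0.36 to -0.26, 0.22 to 0.32 and 0.49 to 0.56, while those of all genes slope with length.

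Other genes of mitochondrial translation were read from fixed lists. Of 5 further subunits of the mitochondrial ribosome without an Mrp symbol, 3 were lower in Pax5 KO than in Pax5 WT, Dap3, Aurkaip1 and Chchd1. Dap3, a GTP-binding small subunit protein, held 3655, 3760, 3638 and 3744 in Pax5 KO, 5235, 4812, 4992 and 5743 in Pax5 WT, and 2937, 3320, 3616 and 2322 in the recipients. It was lower in Pax5 KO (log2 difference -0.49 ± 0.06, SE, adjusted p = 2.73e-05, limma) and in P80R B-ALL (-0.78 ± 0.16, SE, adjusted p = 0.00411, limma) than in Pax5 WT, without overlap. Chchd1 was higher in the leukaemia than in either fetal liver group, at 7664, 12753, 6809 and 7312 in the recipients against 4107, 4710, 4576 and 5863 in Pax5 WT. Ptcd3 passed in no comparison.

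Genes acting around the ribosome were called in both directions. The background shares given above apply to them too, and no difference between lists was tested. Of 26 assembly and rRNA modification genes, between the fetal liver groups 5 were higher and 8 lower in Pax5 KO, with a median of -0.11, and 9 were higher and 1 lower in P80R B-ALL than in Pax5 KO (12 and 1 without recipients 1300 and 1308). Beside Pax5 WT, 3 were higher and 1 lower in the leukaemia (4 and 0 without them). Mrm1, a methyltransferase of the mitochondrial ribosomal RNA, was lower in Pax5 KO than in Pax5 WT by 0.52 on the log2 scale and higher in the leukaemia than in Pax5 KO by 0.94. Of 15 translation factors, 2 were higher and 5 lower in Pax5 KO beside Pax5 WT, and 3 higher and 4 lower in P80R B-ALL than in Pax5 KO (6 and 2 without the 2 recipients). Beside Pax5 WT, 1 translation factor was higher and 4 lower in the leukaemia (4 and 3 without them). Gfm1, the elongation factor G of mitochondria, differed by -0.59 ± 0.14 between the leukaemia and Pax5 KO (SE, adjusted p = 0.00968, limma). Of 17 mitochondrial aminoacyl-tRNA synthetases, 1 was higher and 4 lower in Pax5 KO beside Pax5 WT, Tars2 among the latter at -0.70 on the log2 scale, and 1 was higher and 4 lower in P80R B-ALL than in Pax5 WT (3 and 3 without the 2 recipients). Beside Pax5 KO, 2 synthetases were higher and 3 lower in the leukaemia (4 and 1 without them). Of 16 genes of mitochondrial transcription and mRNA handling, 3 were higher and 2 lower in Pax5 KO beside Pax5 WT, and 3 higher and 3 lower in P80R B-ALL than in Pax5 KO, with the same counts without the 2 recipients. Beside Pax5 WT, 1 was higher and 5 lower in the leukaemia (2 and 5 without them). Among these, Polrmt, the mitochondrial RNA polymerase, differed by -1.47 between the leukaemia and Pax5 KO, and Tefm, an elongation factor of that polymerase, by 1.34.

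Genes of the respiratory chain and of the cytosolic ribosome had counts in the same directions as the mitochondrial ribosomal protein genes. No list of other genes was refitted with the length trend removed. Among all genes of the shortest length class, 39.9% were lower in Pax5 KO beside Pax5 WT. Beside Pax5 KO and Pax5 WT, 35.8% and 32.5% of that class were higher in the leukaemia. Of 74 nuclear respiratory chain subunit genes, 50 were lower and 2 higher in Pax5 KO beside Pax5 WT, and 46 were higher and 2 lower in P80R B-ALL than in Pax5 KO, with medians of -0.26 and 0.63. Of 78 cytosolic ribosomal protein genes, 74 were lower and 0 higher in Pax5 KO beside Pax5 WT, and 68 were higher and 0 lower in P80R B-ALL than in Pax5 KO, with medians of -0.39 and 0.88. Beside Pax5 WT, the leukaemia had 22 respiratory chain genes higher and 3 lower, and 42 cytosolic ribosomal protein genes higher and 1 lower. Without recipients 1300 and 1308 these counts were 14 and 3 for the respiratory chain and 40 and 0 for the cytosolic ribosome, and beside Pax5 KO 46 and 2, and 72 and 0. The 20 genes of the G2/M cell cycle list, which mark dividing cells, took 0.526% to 0.545% of reads in Pax5 KO, 0.880% to 0.947% for Pax5 WT libraries and 0.273% to 0.376% for the leukaemias. Of these 20, 19 were lower in Pax5 KO beside Pax5 WT, 20 were lower in P80R B-ALL beside Pax5 WT (19 without the 2 recipients) and 15 beside Pax5 KO (13 without them), and 0 were higher in any comparison. The leukaemias were thus lowest in G2/M transcripts. In the share of mitochondrial ribosomal protein transcripts, recipients 1300 (0.835%) and 1301 (0.981%) lay above every Pax5 WT library. Recipients 1302 (0.737%) and 1308 (0.669%) lay within the Pax5 WT range of 0.651% to 0.790%. The part of cell division in these results was not tested.

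**Figure D5:**
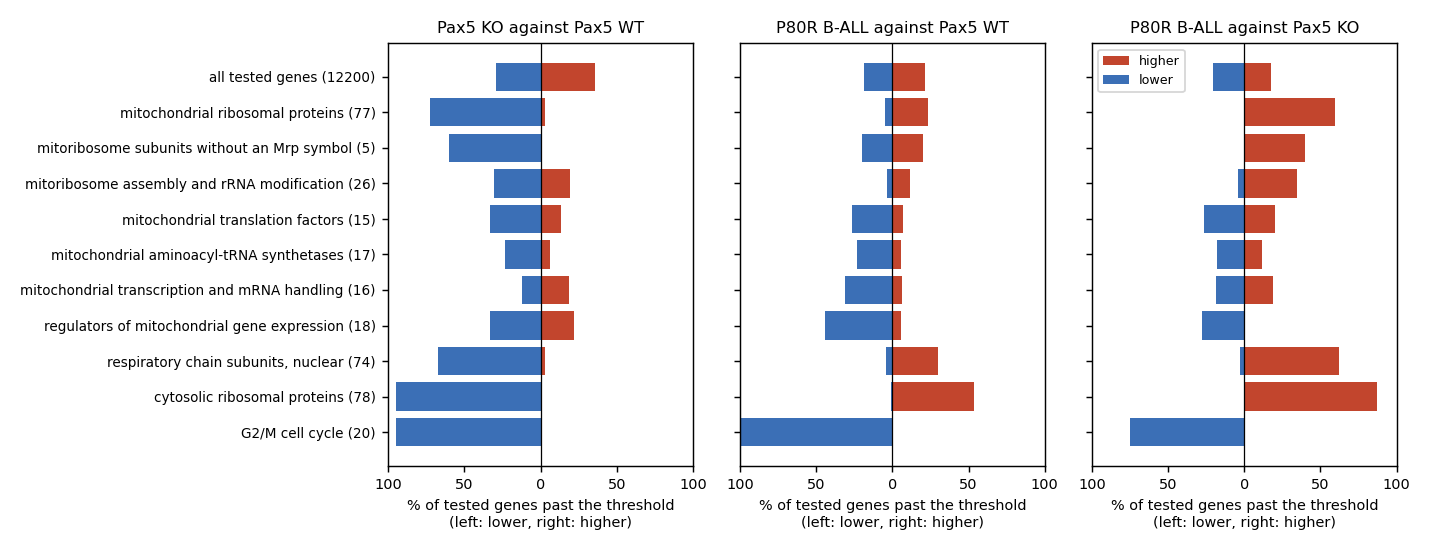
Percent of the tested genes of each list (number in brackets) that passed an adjusted p under 0.05 as higher (red, to the right) or lower (blue, to the left) in the 3 comparisons, with all tested genes at the top. Calls are from the fits without removal of the length trend. In the left panel the bars for G2/M genes, cytosolic ribosomal proteins, mitochondrial ribosomal proteins and respiratory chain reach furthest left of the lists shown, and in the right panel the last 3 of these reach furthest right while G2/M genes lie to the left.

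Of 18 regulators of nuclear genes for mitochondrial proteins, 4 were higher, 6 lower and 8 not past the threshold in Pax5 KO beside Pax5 WT, a share called below the 64.8% of all genes. In P80R B-ALL 1 was higher and 8 lower beside Pax5 WT (2 and 7 without recipients 1300 and 1308), and 0 higher and 5 lower beside Pax5 KO (0 and 4 without them). Myc was higher in Pax5 KO, at 15706, 16226, 15360 and 15895 against 8882, 8788, 8646 and 8429 in Pax5 WT libraries (a log2 difference of 0.86 ± 0.05, SE, adjusted p = 1.3e-08, limma). In the recipients it stood at 14105, 13595, 20282 and 4929, and neither leukaemia comparison passed, though without recipients 1300 and 1308 Myc was called higher beside Pax5 WT (0.93, adjusted p = 0.00423, limma). Recipient 1308 was below every fetal liver library. Nrf1 was lower in Pax5 KO, at 2305, 2470, 2470 and 2473 against 4036, 4056, 3863 and 3361 in Pax5 WT (-0.65 ± 0.07, SE, adjusted p = 5.55e-06, limma), and in P80R B-ALL, at 2227, 2529, 2605 and 2203 (-0.68 ± 0.13, SE, adjusted p = 0.00298, limma). Nrf1 values of the leukaemia and Pax5 KO overlapped. The part of Myc, Nrf1 or the other regulators in the results for the mitochondrial ribosomal protein genes was not tested.

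Among the GABP subunits, Gabpb2 was lower in Pax5 KO than in Pax5 WT (-0.56 on the log2 scale) and lower in P80R B-ALL than in Pax5 WT (-0.86), and Gabpa was lower in P80R B-ALL than in either (-0.61 beside Pax5 WT and -0.47 beside Pax5 KO). Both Gabpa calls were lost without recipients 1300 and 1308 (adjusted p = 0.0914 and 0.104). Atf4, a transcription factor of the mitochondrial stress response, was lower in Pax5 KO (-0.98 ± 0.09, SE, adjusted p = 1.05e-06, limma) and in P80R B-ALL (-1.47 ± 0.19, SE, adjusted p = 0.000388, limma) than in Pax5 WT. Ppargc1a, a coactivator of mitochondrial biogenesis, was a low transcript, at 12.2, 18.1, 7.71 and 18.8 in Pax5 KO, 51.0, 57.0, 46.5 and 42.1 in Pax5 WT and 0 in every recipient. Against a limit of 3 reads in each library it was at least 12.7-fold lower in the leukaemia than in Pax5 WT. Mycn held 0, 40.6, 113 and 2.77 in the recipients against 456 to 574 in Pax5 WT. Of the others, Esrra, Mycn and Pprc1 stood higher without Pax5 (0.84, 0.51 and 0.49) and Mxi1 and Ddit3 lower (-0.46 and -0.64). Beside Pax5 WT, Esrra was higher in the leukaemia (1.29) and Sp1 and Hcfc1 lower (-0.59 and -1.05), Hcfc1 not without recipients 1300 and 1308 (adjusted p = 0.111).

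Promoters of the members were searched for a fixed list of binding motifs of these regulators, without a test. Motif shares were not related to the calls. RefSeq promoters (build GRCm38.p6, 250 bases before to 50 bases after the start) were found for 68 of the 77 genes. The NRF1 motif GCGCANGCG was in 16 of the 68 (23.5%). In windows of the same length, 15.4% of 9648 tested genes with a promoter had it, and 7.03% of all 27025 genes with a promoter. The ETS motif CCGGAAGT was in 12 (17.6%), against 9.36% and 4.31%, and the YY1 motif AAGATGGCG in 8 (11.8%), against 3.67% and 1.64%. The E-box CACGTG, the motif of MYC and its partners, was in 5 (7.35%), against 11.6% and 8.09%. At least 1 of the 4 motifs was in 36 (52.9%), against 33.7% and 18.4%, counting both strands and overlapping matches. These matches describe letters in a window and not bound sites.

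The stretches below give the 120 bases before the start of 5 members, chosen to show each motif, 5′ to 3′ on the strand of the gene, with the motif in capitals. Mrpl12 (chr11:120484517-120484636, plus strand) has an NRF1 motif 80 bases before the start, Mrpl17 (chr7:105811088-105811207, minus strand) a pair of them at 49 and 11 bases, and Mrpl3 (chr9:105053148-105053267, plus strand) an ETS motif at 19 bases. Mrpl20 (chr4:155802758-155802877, plus strand) has an E-box at 33 bases, and Mrpl36 (chr13:73330889-73331008, plus strand) an E-box at 43 bases and a YY1 motif at 31 bases.
Mrpl12: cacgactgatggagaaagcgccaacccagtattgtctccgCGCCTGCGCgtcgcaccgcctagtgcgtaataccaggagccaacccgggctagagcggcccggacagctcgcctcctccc
Mrpl17: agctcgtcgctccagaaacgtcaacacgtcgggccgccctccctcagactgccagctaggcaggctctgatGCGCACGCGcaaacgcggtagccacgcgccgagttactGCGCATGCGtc
Mrpl3: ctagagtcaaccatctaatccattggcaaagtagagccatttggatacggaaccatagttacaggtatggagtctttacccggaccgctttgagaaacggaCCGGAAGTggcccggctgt
Mrpl20: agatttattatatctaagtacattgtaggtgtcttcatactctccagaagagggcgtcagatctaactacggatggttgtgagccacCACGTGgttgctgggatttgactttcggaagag
Mrpl36: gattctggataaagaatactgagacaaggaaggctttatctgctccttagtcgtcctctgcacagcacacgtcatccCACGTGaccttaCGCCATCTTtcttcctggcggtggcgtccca

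The 5 genes differed in their calls. Mrpl17 and Mrpl20 were lower in Pax5 KO than in Pax5 WT (-0.24 and -0.33) and higher in P80R B-ALL than in both fetal liver groups. Mrpl12 and Mrpl3 were lower in Pax5 KO (-0.36 and -0.33) and higher in P80R B-ALL than in Pax5 KO (0.77 and 0.83), but did not pass beside Pax5 WT. Mrpl36 did not pass between the fetal liver groups, at 3590, 3696, 3881 and 4156 in Pax5 KO and 3497, 3868, 3869 and 4599 in Pax5 WT. It was higher in the leukaemia, at 5546, 7038, 5001 and 5313, above every fetal liver library (0.53 beside Pax5 WT and 0.57 beside Pax5 KO).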

How the data were processed

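The data were 12 RNA-seq libraries of sorted mouse cells, prepared with a SMART-Seq v4 kit, which copies full-length cDNA and does not mark strand, per the labels' protocols. The tools listed in the submitters' processing notes are STAR 2.7.8a, fastp and featureCounts, and the build listed is mm39. Which annotation and strand setting were used, and what was done with multi-gene reads, is not stated there. The deposited signal values were read counts scaled by the authors with 1 factor per library: 100% of values were whole multiples of that factor (between 0.722 and 1.38) within 0.001, so whole reads were recovered for the count tests. How the factors were estimated is not given. Of the table's gene identifiers, 21780 matched a symbol and 105 did not.

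The 12200 genes that reached a value of 10 in 4 or more of the 12 libraries were fitted with limma 3.58.1 in R 4.3.3 (trend and robust moderation, two-sided) on log2(value + 1), each pair of groups in its own fit of 8 libraries because the spread of P80R B-ALL was larger than that of the others. Benjamini-Hochberg adjustment ran over all 12200 genes, with calls at 0.05. Fold changes of low genes are understated on this scale. Transcript lengths were medians of protein-coding transcripts in a GRCm38 annotation, matched by gene. The test was checked on simulated data. Per comparison, members were named as the up to 8 largest differences in each direction that passed without overlap between groups and the 3 largest that did not pass, plus Mrpl12, Mrps12, Mrps18a, Mrps18b, Mrps18c, Mrps30, Mrps36 and those highest, lowest or most variable. From other lists, up to 2 genes per comparison with the smallest adjusted p, and regulators that passed, were named; Mrpl1, Mrpl3, Mrpl17, Mrpl36 and Ptcd3 were added after their values were seen, and 1 gene named by this rule is not reported here. Members and lists were chosen with earlier results of these data known. Alternatives covered pseudocounts of 0.5 and 5, filters, edgeR 4.0.16, DESeq2 1.42.0, scalings, joint fits and libraries left out. Those without recipients 1300 and 1308 (also for the other lists) and without the length trend were added after seeing the data.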

Additional observations from a re-analysis of the deposited data

Results flagged for a closer look

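In 16 of 263 groups of 4 libraries examined, the highest or lowest library stood apart from the other 3 by more of the group's range than Dixon's 95% critical value for 4 samples. Chance flags about 1 in 20 groups. Among the mitochondrial ribosomal protein genes, Pax5 WT library 4 was high for Mrpl48 at 2528 scaled reads (next 1917), Mrps18c at 4149 (next 3079), Mrps25 at 2636 (next 2182) and Mrps36 at 2082 (next 1743). Pax5 KO library 3 was low for Mrpl49 at 1857 (next 2103) and Mrps15 at 3168 (next 3462), and Pax5 KO library 4 was high for Mrpl19 at 2582 (next 2298). Recipient 1301 was high for Mrpl42 at 9798 (next 6757) and recipient 1300 for Mrpl52 at 4853 (next 2982). Among the other genes, Pax5 KO library 1 was high for Atf4 at 5401 (next 4151) and low for Nrf1 at 2305 (next 2470), library 2 was high for Polrmt at 1674 (next 1497) and library 4 for Ndufs8 at 4778 (next 4337). Recipient 1301 was high for Chchd1 at 12753 (next 7664), recipient 1302 was low for Rps27 at 25187 (next 34925), and Pax5 WT library 4 was high for Ube2c at 21560 (next 18375).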

How the results depend on the processing

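Across the alternatives, the excess of lower calls in Pax5 KO beside Pax5 WT and of higher calls in P80R B-ALL beside Pax5 KO kept its direction in every setting run, and the difference of P80R B-ALL from Pax5 WT did not. Removing the trend on transcript length gave, for Pax5 KO against Pax5 WT, 10 higher genes and a median of -0.18; for P80R B-ALL against Pax5 WT, 19 lower and a median of -0.0039, a change of sign; and for P80R B-ALL against Pax5 KO, 28 higher, 10 lower and a median of 0.19. Shares of all genes in those fits are given above. With all 12 libraries in 1 fit, the wide leukaemia spread is lent to the fetal liver groups. The counts were then 0 higher and 29 lower for Pax5 KO against Pax5 WT. For P80R B-ALL they were 28 and 9 against Pax5 WT, with 1 lower against Pax5 KO. Shares of all genes higher and lower were then 20.1% and 14.3%, 26.4% and 24.6%, and 21.6% and 26.7% in the same order. For Pax5 KO against Pax5 WT, 1 gene was higher with no filter on low values, under edgeR, under DESeq2 and with TMM scaling. For P80R B-ALL against Pax5 WT, 2 genes were lower with no filter, under DESeq2 and with TMM scaling, and 7 with scaling by total reads. For P80R B-ALL against Pax5 KO, 1 was lower with scaling by total reads. The cause of these changes was not tested.

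In P80R B-ALL against Pax5 KO, scaling alone moved the median of all genes by -0.14 on the log2 scale with total reads and by 0.048 with TMM; edgeR and DESeq2, which change the model too, moved it by 0.17 and 0.19. Relative to all genes, the members' median was 0.65 with total reads, 0.57 under edgeR and 0.57 under DESeq2, against 0.65 in the reported fit. In P80R B-ALL against Pax5 WT the median of all genes moved by 0.12 under DESeq2, and the members' median relative to all genes was 0.22 against 0.26. Dropping the filter moved it by 0.11.

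Leaving out each library in turn gave 1 to 3 higher and 52 to 58 lower genes for Pax5 KO against Pax5 WT (median -0.37 to -0.29). For P80R B-ALL against Pax5 WT it gave 9 to 25 higher and 1 to 9 lower (0.13 to 0.33). For P80R B-ALL against Pax5 KO it gave 32 to 47 higher and 0 to 1 lower (0.43 to 0.62). In these fits 32.5% to 36% of all genes were higher and 26.8% to 30.4% lower for Pax5 KO against Pax5 WT. Beside Pax5 WT the leukaemia shares were 15.9% to 22.7% and 12.6% to 21.4%, and beside Pax5 KO 12.5% to 19.4% and 13.1% to 24.2%. The count of lower genes in P80R B-ALL against Pax5 WT was 2 without Pax5 WT library 1 or 4 or recipient 1302 or 1308, and 1 without Pax5 WT library 2 or 3. The ratio of large to small subunit levels, summed without dividing by length, was 2.41 in Pax5 KO, 2.46 in Pax5 WT and 2.58 in P80R B-ALL, and as a ratio of geometric means 1.34, 1.38 and 1.48 in the 3 groups.

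Deviations of Pax5 KO and Pax5 WT libraries from their group means had correlations of 0.005 to 0.062 for libraries of the same replicate number. For different numbers they were -0.063 to 0.036, and values this small cannot tell whether the numbers pair the libraries. A fit with the replicate number as a block gave 2 higher and 57 lower genes and a median of -0.34.

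Named genes changed sign only where the difference was small or the length trend was removed. With that trend removed, Mrpl52 and Mrps12 were at 0.19 and 0.086 in Pax5 KO against Pax5 WT. Mrpl52 passed as higher there (adjusted p = 0.0101, limma). Mrps12, Mrps18a, Mrps18c and Mrps30 were at -0.12, -0.16, -0.0065 and 0.084 in P80R B-ALL against Pax5 WT. In P80R B-ALL against Pax5 KO, Mrps12 and Mrps36 were at -0.20 and -0.28. With the trend kept, in P80R B-ALL against Pax5 WT, Mrps36 was at 0.0062 under edgeR, 0.056 under DESeq2 and 0.012 with TMM scaling. There, leaving out each library in turn gave -0.13 to 0.14 for Mrps36 (positive without Pax5 WT library 4 or recipient 1302). It gave -0.27 to 0.0059 for Mrps18b (positive without recipient 1300) and -0.13 to 0.0060 for Mrps30 (positive without recipient 1308). Without recipients 1300 and 1308 together, Mrps18b was at 0.14 and Mrps30 at 0.0091 in that comparison, and Mrps18b at 0.071 in P80R B-ALL against Pax5 KO. Of the values of named members under alternatives, 999 kept their direction and side of the threshold, 50 no longer passed, 53 passed anew and 18 changed sign. Counting error of the summed members was small, since together they took at least 180366 reads in each library. For single genes such as Mrps34 it is larger, and it was not estimated. The spread between leukaemias limits the comparisons with P80R B-ALL.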
